A study of Mus musculus with 16 samples.

Results

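Heat shock proteins are molecular chaperones: they hold newly made or damaged proteins, help them fold and keep them from clumping. HSP70 proteins (Hspa1a, Hspa1b and the constitutive Hspa8) work in a cycle driven by ATP, in which DNAJ (HSP40) partners such as Dnajb1 deliver the client and exchange factors such as Hsph1 release the nucleotide. HSP90 proteins (Hsp90aa1, Hsp90ab1) act on clients that are nearly folded, Hspd1 and Hspe1 form the barrel and lid of the mitochondrial chaperonin, and Hspb1 is a small heat shock protein that binds unfolding clients without ATP. Many of these genes are switched on by heat shock factor 1 in stressed cells, and tissue dissociation is known to raise some of them. The members were the probesets annotated with the symbol of 1 of these 10 genes. Of the 10, 8 were measured, each by 1 probeset, among 22206 gene probesets in all. Hspa8 and Hsp90ab1 were not analysed here.

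Levels came from 16 Clariom S arrays of sorted cells of the olfactory mucosa of S100a5-tauGFP mice, whose green fluorescent protein (GFP) reports S100a5, a gene of olfactory sensory neurons that follows their activity. The 24 mice, of both sexes and aged 7 to 12 weeks, stayed alone in clean air chambers for 40 h, and from 26 h on received pulses of 10 s every 20 min of an odorant or of filtered air, the vehicle. The labels call the odorant bourgeonal and the series title calls it indole, so it is named only as the odorant here. The groups, of 4 arrays each, were GFP+ cells with odorant, GFP+ cells with vehicle, GFP- cells with odorant and GFP- cells with vehicle. Each array held RNA of cells from 3 mice, and GFP+ and GFP- arrays that share treatment and number stem from 1 pool of mice, so there were 8 pools. All groups shared the reporter, the chamber, the dissociation and the sort.

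Values are log2 probeset signals as deposited by the authors. A level was called above background when it exceeded the 95th percentile of 23 antigenomic probesets of the same array (6.57 to 6.87). Arrays of 1 group correlated at 0.987 to 0.994 across probesets, and the number of arrays limits the precision. S100a5 averaged 15.99 ± 0.31 in GFP+ cells with odorant, against 14.85 ± 0.28 in GFP- cells with odorant (SD, n = 4 each), and within pools it was 1.04 higher in GFP+ cells (SE 0.11, adjusted p = 1.2e-05 in limma). Omp, the marker of mature olfactory neurons, was high on all 16 arrays and differed by 0.07 within pools (95% interval -0.10 to 0.25). In both treatments the pools numbered 4 stood apart, with 2.63 to 3.41 for the Y-linked Eif2s3y, against 9.95 to 11.17 on the other arrays.

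The stretch in front of a heat shock gene often carries heat shock elements, repeats of GAA and its reverse complement TTC at which heat shock factor trimers bind. RefSeq promoter windows of 300 bases (GRCm38.p6, 250 before to 50 after a start site) were found for 7 of the 8 measured members, in 10 windows. A 2-unit element, GAANNTTC or TTCNNGAA, stood in at least 1 window of 6 of the 7 genes, some of which have more than 1. Counted per window, it stood in 15.1% of all 32851 windows. Each order reads the same on both strands. A 3-unit element, GAANNTTCNNGAA on either strand, which overlaps 2-unit elements, stood in windows of 3 members (Hsph1, Hspd1 and Hspe1) and in 0.603% of all windows. The windows below carry their 2-unit elements in capitals and read 5′ to 3′ on the strand of the gene. They are shown because Hspa1a and Hspa1b were lower and Hsph1 higher in GFP+ cells, while Hspe1, which differed little, has its elements in a stretch shared with Hspd1.
Hspa1a, chr17:34972107-34972406, minus strand: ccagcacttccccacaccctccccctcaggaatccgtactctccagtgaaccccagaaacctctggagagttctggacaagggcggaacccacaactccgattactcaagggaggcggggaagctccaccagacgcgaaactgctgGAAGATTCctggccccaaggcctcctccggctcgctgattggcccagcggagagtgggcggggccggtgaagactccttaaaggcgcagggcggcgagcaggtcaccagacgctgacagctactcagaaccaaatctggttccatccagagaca
Hspa1b, chr17:34959189-34959488, minus strand: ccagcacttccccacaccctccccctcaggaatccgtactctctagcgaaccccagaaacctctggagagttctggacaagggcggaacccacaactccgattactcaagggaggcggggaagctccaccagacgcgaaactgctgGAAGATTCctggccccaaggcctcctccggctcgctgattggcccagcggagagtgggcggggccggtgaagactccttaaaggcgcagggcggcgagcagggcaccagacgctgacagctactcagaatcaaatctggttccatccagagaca
Hsph1, chr5:149636287-149636586, minus strand: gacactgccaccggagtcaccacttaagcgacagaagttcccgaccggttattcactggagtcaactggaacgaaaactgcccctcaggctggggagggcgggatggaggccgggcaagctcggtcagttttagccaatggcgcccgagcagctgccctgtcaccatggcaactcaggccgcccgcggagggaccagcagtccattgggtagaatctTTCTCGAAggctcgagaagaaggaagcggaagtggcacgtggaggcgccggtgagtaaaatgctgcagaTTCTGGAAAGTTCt
Hspe1, chr1:55087898-55088197, plus strand: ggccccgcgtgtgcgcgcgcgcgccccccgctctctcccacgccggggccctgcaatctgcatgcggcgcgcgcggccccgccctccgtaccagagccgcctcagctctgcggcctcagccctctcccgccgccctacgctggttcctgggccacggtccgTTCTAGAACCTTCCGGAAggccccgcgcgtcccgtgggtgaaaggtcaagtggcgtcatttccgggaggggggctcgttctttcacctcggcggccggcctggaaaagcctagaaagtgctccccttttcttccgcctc
Hspa1a and Hspa1b each held 1 element, at position -104 from the start site in both. Their windows were identical at 296 of 300 positions, with a longest identical run of 201 bases. They are neighbours in RefSeq order and near-identical copies, so how far their probesets share signal is uncertain and was not tested. Hsph1 held 3 elements, at -33, 36 and 41 in the window shown and at -54, 15 and 20 from the start site of its other window. Hspe1 held 3, between -89 and -79. Hspd1 lies next to Hspe1 and reads the same 3 elements from the other strand in 1 of its windows, while its other window held none. Of the 2 windows of Dnajb1, none held these letters. A match describes the sequence and not binding.

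Of the inducible HSP70 genes, Hspa1a read 8.05, 7.37, 8.02 and 7.71 in GFP+ cells with odorant, against 7.99, 7.48, 7.76 and 8.45 in GFP+ cells with vehicle (log2 signal, replicates 1 to 4). It read 11.17, 7.93, 8.13 and 8.64 in GFP- cells with odorant, against 9.41, 8.94, 7.91 and 10.16 in GFP- cells with vehicle. The GFP+ arrays lay close together in both treatments, with low ends of 7.37 (odorant) and 7.48 (vehicle). The GFP- arrays spread upward from 7.93 (odorant) and 7.91 (vehicle). The SD over 4 arrays was 0.32 (odorant) and 0.41 (vehicle) in GFP+ cells, against 1.498 (odorant) and 0.94 (vehicle) in GFP- cells.

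Hspa1b, the neighbouring copy, read 6.60, 6.45, 6.46 and 6.62 in GFP+ cells with odorant, none of them above background, and 7.45, 6.95, 7.09 and 7.53 in GFP+ cells with vehicle. It read 9.94, 7.08, 7.80 and 7.84 in GFP- cells with odorant, against 8.85, 8.16, 7.03 and 9.25 in GFP- cells with vehicle. The 4 arrays of GFP+ cells with odorant lay below all 12 others. For both copies the highest array was the GFP- fraction of odorant pool 1.

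Dnajb1, the HSP40 that stimulates HSP70, read 11.16, 10.25, 10.64 and 10.63 in GFP+ cells with odorant, against 10.40, 10.44, 10.71 and 10.78 in GFP+ cells with vehicle. It read 11.70, 10.41, 10.82 and 10.98 in GFP- cells with odorant, against 10.87, 10.97, 11.07 and 11.32 in GFP- cells with vehicle. With vehicle all GFP+ arrays lay below all GFP- arrays, and with odorant the fractions overlapped.

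Hsph1, the HSP110 exchange factor, read 10.36, 10.93, 10.30 and 10.69 in GFP+ cells with odorant, against 10.14, 10.23, 10.78 and 10.57 in GFP+ cells with vehicle. It read 10.02, 10.35, 9.94 and 10.65 in GFP- cells with odorant, against 9.94, 9.56, 9.99 and 10.02 in GFP- cells with vehicle. With vehicle all GFP+ arrays lay above all GFP- arrays, the opposite of Dnajb1, and with odorant they overlapped.

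Hsp90aa1, the inducible cytosolic HSP90, read 16.33, 16.12, 15.97 and 16.32 in GFP+ cells with odorant, against 16.18, 16.16, 16.32 and 16.13 in GFP+ cells with vehicle. It read 16.28, 15.96, 15.93 and 16.28 in GFP- cells with odorant, against 15.99, 16.51, 16.35 and 16.43 in GFP- cells with vehicle. All 4 groups overlapped.

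Of the chaperonin pair, Hspd1 (HSP60) read 11.73, 12.32, 12.45 and 12.56 in GFP+ cells with odorant, against 12.43, 12.43, 12.25 and 12.46 in GFP+ cells with vehicle. It read 12.25, 12.09, 12.38 and 12.38 in GFP- cells with odorant, against 12.45, 12.43, 12.14 and 12.66 in GFP- cells with vehicle. Hspe1 (HSP10) read 9.98, 9.68, 10.33 and 10.35 in GFP+ cells with odorant, against 10.45, 10.47, 9.81 and 10.63 in GFP+ cells with vehicle. It read 10.51, 9.49, 10.17 and 9.70 in GFP- cells with odorant, against 10.05, 10.33, 10.15 and 10.59 in GFP- cells with vehicle. The 4 groups overlapped for both genes. Hspb1 was at background on all 16 arrays (2.70 to 5.66), so no size of difference is given for it.

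**Figure D1:**
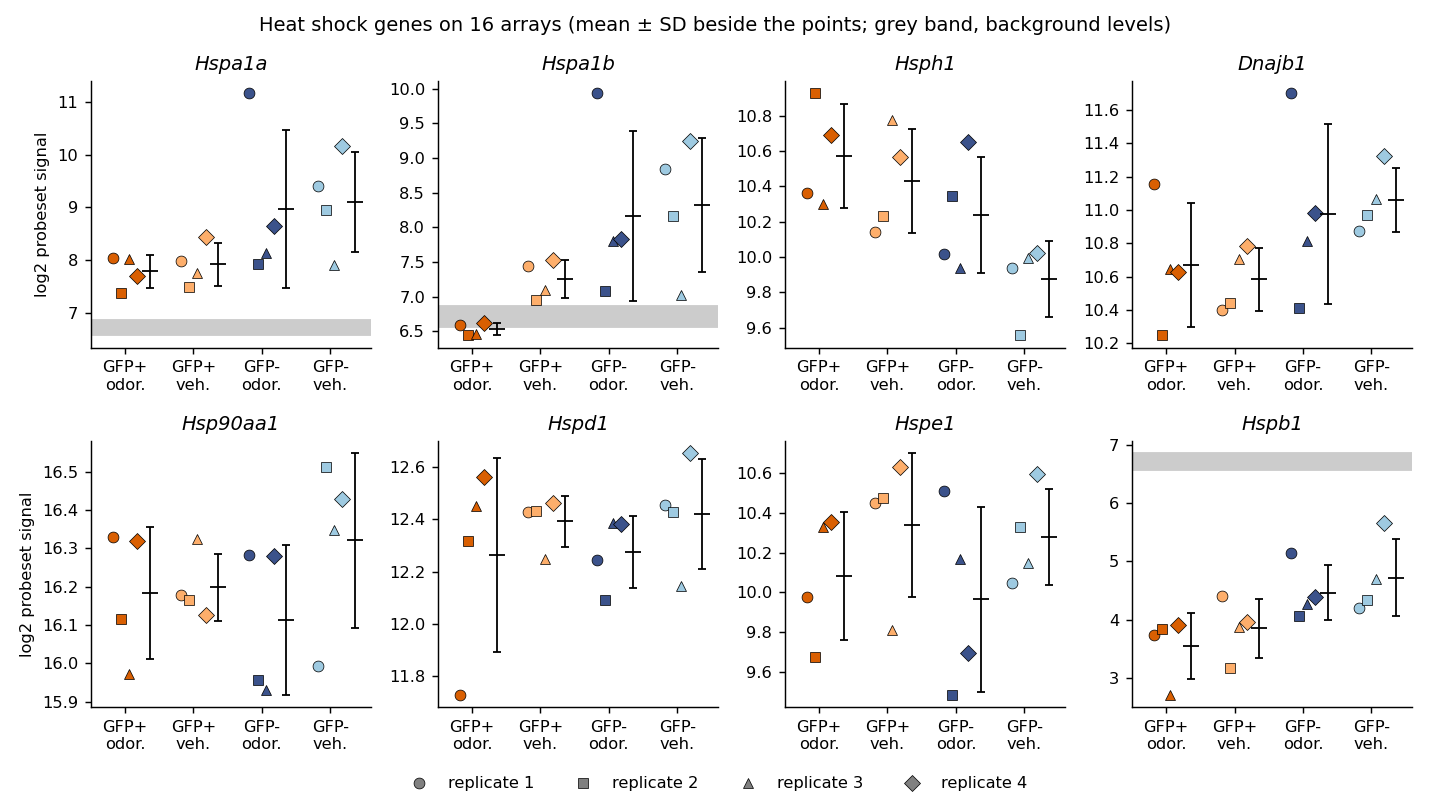
Log2 probeset signal of the 8 measured heat shock genes (vertical axes, 1 panel and scale per gene) on 16 arrays by group, with the mean and SD of 4 arrays beside the points and the range of background levels as a grey band. The GFP- arrays of Hspa1a and Hspa1b spread most, from 7.91 to 11.17 and from 7.03 to 9.94, and Hspb1 lies below background throughout.

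By group mean, Hspa1a and Hspa1b had the same order from high to low: GFP- cells with vehicle, GFP- cells with odorant, GFP+ cells with vehicle and GFP+ cells with odorant. Dnajb1 likewise had both GFP- groups on top, and Hsph1 had both GFP+ groups on top. Neighbours in these orders mostly lay closer than the larger of their SDs. Leaving Hspb1 aside, the exceptions were Hspa1b, at 6.53 ± 0.09 in GFP+ cells with odorant (background on all 4 arrays), against 7.26 ± 0.28 in GFP+ cells with vehicle, and Hsph1, at 10.24 ± 0.33 in GFP- cells with odorant, against 9.88 ± 0.22 in GFP- cells with vehicle (SD, n = 4 each).

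Whether the odorant changed expression in GFP+ cells was asked first. No heat shock gene was called: 0 of 8 passed an adjusted p of 0.05 in limma, where 0% of all probesets did, and 1 of 8 had an unadjusted p under 0.05, against 3.82% (848 probesets). The median difference of the 8 was -0.13, against 0.01 over all probesets. The 1 gene was Hspa1b, whose difference was -0.73 (SE 0.16, unadjusted p = 9.0e-04, adjusted p = 0.999 in limma). With the odorant arrays at background, that is at least 1.40-fold lower with odorant by group means. The spread between arrays is left out of this bound, and the 95% interval of the difference as read was -1.08 to -0.37. The groups of Hspa1b did not overlap, as held for 2.3% of all probesets in either direction. For the near-identical Hspa1a the difference was -0.13 (95% interval -0.63 to 0.36).

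Among the other members the difference in GFP+ cells was 0.14 for Hsph1, 0.09 for Dnajb1, -0.01 for Hsp90aa1, -0.13 for Hspd1 and -0.26 for Hspe1, each with an adjusted p of 0.999 in limma. When vehicle replicate 4 was left out, or replicate 4 of both treatments, 3 probesets of the whole table were called in place of 0, and none of them was a heat shock gene.

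In GFP- cells the odorant again gave 0 of 8, where 0% of all probesets passed in limma, and 0 of 8 unadjusted, against 6.84% (1520 probesets). No member's groups stood clear of each other, where those of 4.16% of all probesets did. Hsph1 had the largest positive difference, 0.36 (95% interval -0.07 to 0.79, adjusted p = 0.75 in limma), and Hspe1 the largest negative one, -0.31 (-0.83 to 0.20). The intervals were widest for the HSP70 genes, -1.62 to 1.34 for Hspa1a and -1.48 to 1.16 for Hspa1b. HSP70 differences within those bounds are not excluded by these 4 arrays a group.

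The difference of the odorant effects (GFP+ minus GFP-) also passed for 0 of 8, where 0% of all probesets passed in limma, and for 0 of 8 unadjusted, against 4.92% (1093 probesets). For Hspa1b it was -0.57 (95% interval -2.02 to 0.88), so the difference in GFP+ cells was not shown to depart from that in GFP- cells. S100a5 itself differed by 0.02 with odorant in GFP+ cells (SE 0.19, adjusted p = 0.999 in limma) and by -0.19 in GFP- cells (SE 0.17, adjusted p = 0.83).

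**Figure D2:**
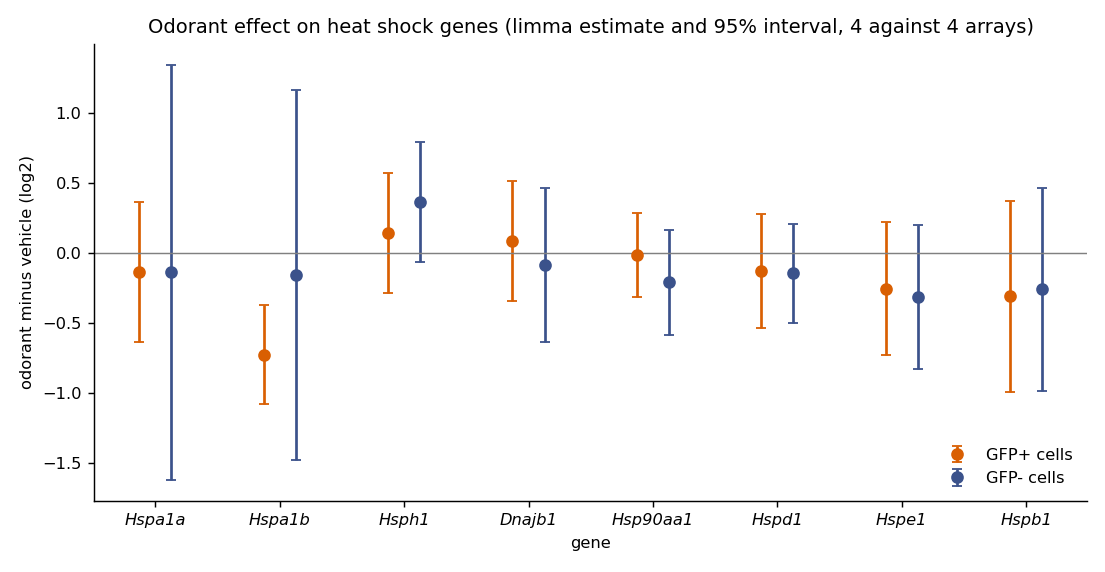
Odorant minus vehicle (log2, vertical axis) for each heat shock gene in GFP+ and in GFP- cells, as the limma estimate with its 95% interval from 4 against 4 arrays. The interval of Hspa1b in GFP+ cells, -1.08 to -0.37, is the only one of the 16 that leaves out 0, and its adjusted p was 0.999. The odorant arrays of Hspa1b there, and all arrays of Hspb1, lie at background.

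The other comparison was that of reporter-positive with reporter-negative sorted cells, and Omp was high in both. With 4 arrays a side, 0 of 8 heat shock genes passed with odorant, where 11.4% of all probesets did (3.57% higher, 7.84% lower), and 0 of 8 passed with vehicle, where 17.7% did (7.76% higher, 9.97% lower). At an unadjusted p under 0.05 there were 2 of 8 with odorant, against 22.2%, and 5 of 8 with vehicle, against 30.7%. The fractions did not overlap for 2 of 8 with odorant (Hspa1b, and Hspb1 at background in both), against 16.9% of all probesets, and for 2 of 8 with vehicle (Dnajb1 and Hsph1), against 22.9%. With odorant Hspa1b averaged 6.53 ± 0.09 in GFP+ cells and 8.16 ± 1.23 in GFP- cells (SD, n = 4 each), at least 2.63-fold lower in GFP+ cells (adjusted p = 0.051 in limma). With vehicle Hspa1a was 2.27-fold lower in GFP+ cells (adjusted p = 0.072), Hspa1b 2.09-fold lower (adjusted p = 0.097), Dnajb1 1.39-fold lower (adjusted p = 0.059) and Hsph1 1.47-fold higher (adjusted p = 0.060). Without pool 1 or pool 2, Hspa1b was called with odorant, and without pool 3, Hspa1a (adjusted p = 0.025) and Hspa1b (adjusted p = 0.016) were called with vehicle.

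Because both fractions of a pool came from the same mice, the pool was also held constant as a block. Hspa1b then passed with odorant (adjusted p = 0.034 in limma), where 883 of all 22206 probesets were called higher and 1817 lower. Its GFP+ arrays lay at background there, and the bound of at least 2.63-fold lower by group means applies. With vehicle 4 of the 8 genes passed, where 1682 of all 22206 probesets were called higher and 2237 lower. The 4 were Hspa1a (-1.18, adjusted p = 0.021), Hspa1b (-1.07, adjusted p = 0.041), Dnajb1 (-0.48, adjusted p = 0.046) and Hsph1 (0.55, adjusted p = 0.046). Hspa1a did not pass with odorant (adjusted p = 0.15).

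Over all 8 pools, in a fit added after the data were seen, 5 of the 8 heat shock genes passed, 1 higher and 4 lower in GFP+ cells, against 28.1% of all probesets (15.2% higher, 12.9% lower). Hspa1a fell by 1.18 in GFP+ cells (SE 0.28, adjusted p = 0.0079 in limma). Its GFP+ minus GFP- differences were -3.12, -0.56, -0.11 and -0.93 in the odorant pools and -1.42, -1.46, -0.15 and -1.71 in the vehicle pools, so it was lower in 8 of 8. Hspa1b fell by 1.35 (SE 0.28, adjusted p = 0.0032), with differences of -3.34, -0.64, -1.35 and -1.22 in the odorant pools and -1.40, -1.21, 0.06 and -1.71 in the vehicle pools. It was lower in 7 of 8. All 4 GFP+ arrays with odorant lay at background for Hspa1b, so the odorant differences and the mean are those of the signal as read. The fold of the group means with odorant is bounded only as at least 2.63, with the spread between arrays left out.

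Dnajb1 fell by 0.39 in GFP+ cells (SE 0.088, adjusted p = 0.0060 in limma), with differences of -0.54, -0.16, -0.17 and -0.35 in the odorant pools and -0.48, -0.53, -0.36 and -0.54 in the vehicle pools. Hsph1 rose by 0.44 (SE 0.10, adjusted p = 0.0071), with differences of 0.35, 0.58, 0.36 and 0.04 in the odorant pools and 0.21, 0.68, 0.78 and 0.55 in the vehicle pools. Dnajb1 was lower and Hsph1 higher in 8 of 8 pools, where 10.1% of all probesets were lower and 10.1% higher in every pool. Hspb1 was also called lower (adjusted p = 0.0060 in limma), but its values lie at background on all 16 arrays, so of the 5 members called 4 had a level above background in any group.

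No difference was called for the remaining 3 members. Hsp90aa1 differed by -0.03 (95% interval -0.23 to 0.18), Hspd1 by -0.02 (-0.24 to 0.20) and Hspe1 by 0.09 (-0.19 to 0.37).

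The scaling of the arrays bears on part of this. GFP+ arrays had lower medians (6.29 to 6.38) than GFP- arrays (6.64 to 6.76). With each array's median subtracted, the median difference of all probesets was 0.44 in place of 0.10, with 15341 higher and 1996 lower calls in place of 3380 and 2861. Hspa1a (-0.84), Hspa1b (-1.01) and Hsph1 (0.78) were called under that scaling too, while Dnajb1 was not (-0.05, adjusted p = 0.60 in limma). Hsp90aa1 (0.31), Hspd1 (0.32) and Hspe1 (0.43) were then called higher, all 3 below the median of all probesets.

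**Figure D3:**
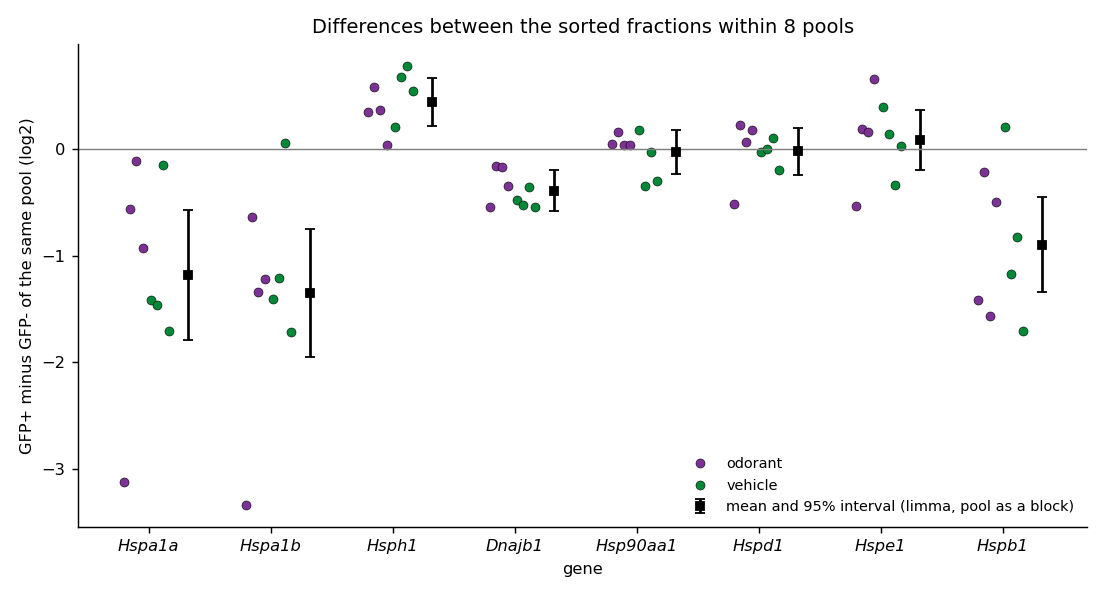
GFP+ minus GFP- log2 signal of the same pool (log2 difference) for each heat shock gene, 1 point per pool coloured by treatment, with the limma mean and 95% interval over 8 pools. All pools lie below 0 for Hspa1a and Dnajb1 and above it for Hsph1, while the intervals of Hsp90aa1, Hspd1 and Hspe1 span 0. Hspb1 in all pools, and the GFP+ arrays of Hspa1b with odorant, lie at background.

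The widest gap between fractions was in odorant pool 1, whose GFP- array was the highest of 16 for Hspa1a, Hspa1b and Dnajb1. On that array the mean level of 31 immediate early gene probesets was 10.04, against 9.30 to 9.41 on the other 3 arrays of its group. The mean over 10 sustentacular markers was 11.30 there, against 9.81 to 10.38, and that over 16 immune markers 10.20, against 9.08 to 9.26. Immune means were higher still, 10.31 and 10.46, in GFP- cells with vehicle of replicates 2 and 3, where Hspa1a read 8.94 and 7.91. Over the 8 GFP- arrays, with group means subtracted, the r of Hspa1a was 0.89 to the sustentacular, 0.52 to the immediate early and 0.16 to the immune mean. It was 0.97 to the mean of the cytosolic chaperonin TRiC, 0.92 to HSP70 exchange factor and BAG genes and 0.84 to HSP90 co-chaperones. To microvillar and tuft markers it was 0.77, and to mature neuron markers -0.51. To fibroblast and glia markers it was 0.89, but 7 of those 9 probesets lay at background in both GFP- groups. Over the differences within the 8 pools, r was 0.43 to the sustentacular, 0.38 to the immediate early and 0.05 to the immune mean. These values include odorant pool 1 and are a description. The part of any of these lists in the heat shock values was not tested. Without this pool Hspa1a differed by -0.91 (adjusted p = 0.0076 in limma) and Hspa1b by -1.07 (adjusted p = 0.0017) between the fractions, and the same number of members, 5, was called.

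After subtraction of group means, Hspa1a and Hspa1b varied together over the 16 arrays (Pearson r 0.96, Spearman rho 0.95), with an r of 0.91 without the 2 arrays farthest out in Hspa1a. For Hspa1a and Dnajb1 r was 0.76 (rho 0.55), and 0.51 without those 2 arrays. Hsph1 did not follow them, with an r of -0.19 to Hspa1a. Hspd1 and Hspe1, which share an upstream stretch, had an r of 0.45. Over the 21 pairs of the members other than Hspb1 r ran from -0.58 to 0.96, with a median of 0.20. Hspa1b is among the 7 although 4 of its 16 values, those of GFP+ cells with odorant, lay at background, which touches 6 of the 21 pairs. Arrays share pools and processing, so these values describe the arrays and test nothing.

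**Figure D4:**
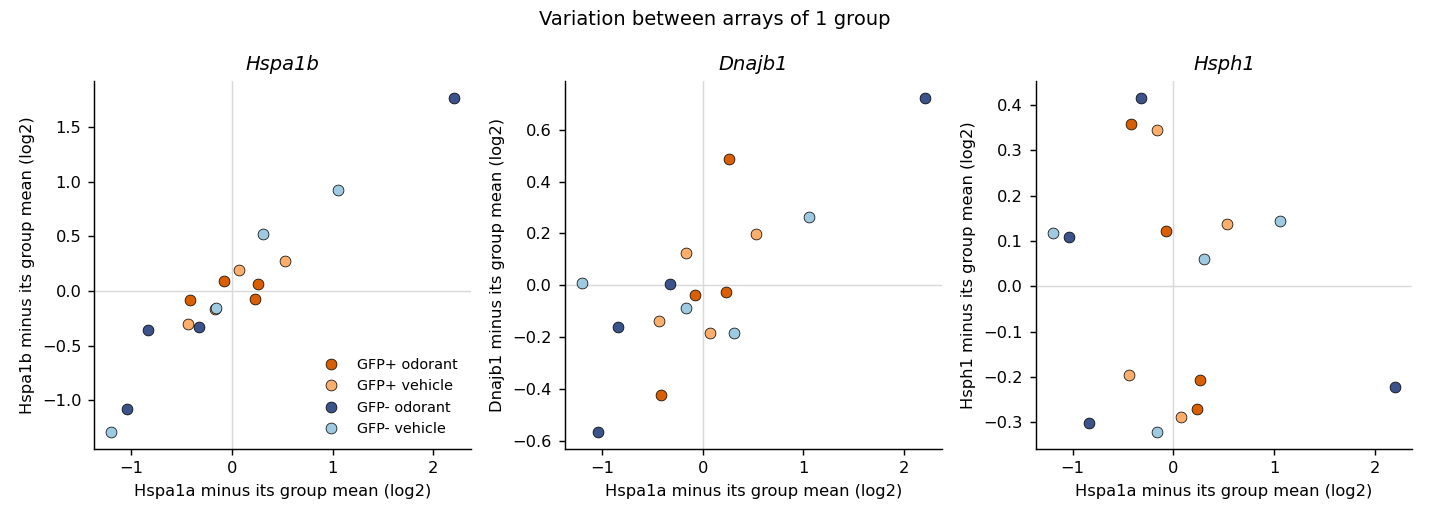
Hspa1b, Dnajb1 and Hsph1 (vertical axes) against Hspa1a (horizontal axis) on 16 arrays, each as log2 signal minus the mean of its group. Hspa1b follows Hspa1a closely (r 0.96), Dnajb1 less closely (r 0.76), and Hsph1 does not (r -0.19).

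The genes most like a member were taken as the 5 with the highest r of the same centred values among 8543 probesets. These were above background on all 16 arrays and had a symbol, with members and Gm or Rik symbols left out. For Hspa1b they were Epcam (0.895), Fam98b (0.893), Chmp5 (0.892), Tfam (0.886) and Etfa (0.858). For Hspd1 they were Me1 (0.860), Lrriq3 (0.848), Tmem60 (0.839), Hnrnpa0 (0.838) and Dph7 (0.826). For the mean of the members they were Ctsl (0.928), Mtch1 (0.893), Snf8 (0.884), Cct2 (0.879), a subunit of the cytosolic chaperonin TRiC, and Txndc15 (0.872). That mean included Hspb1, which lay at background on all 16 arrays. Of 21 gene lists, the one whose mean level varied most closely with Hspa1a and with Hspa1b was TRiC, at an r of 0.80 and 0.84.

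Among the co-chaperones, 12 of 39 measured DNAJ probesets were higher in GFP+ cells within pools, where 15.2% of all probesets were. Of the 39, 0 were lower, where 12.9% were, and their median was 0.17 against 0.10 over all probesets. Dnajb1, called lower in the same fit, is counted with the members and not among these 39. In the fits of 4 against 4 arrays 0 of 39 passed with odorant, and 5 were higher with vehicle, where 7.76% of all probesets were. Dnaja2, a cytosolic HSP40, averaged 10.80 ± 0.03 in GFP+ cells with vehicle and 9.99 ± 0.19 in GFP- cells with vehicle (SD, n = 4 each, adjusted p = 0.0022 in limma), and differed by 0.04 with odorant (adjusted p = 0.93). Dnajc27, a small GTPase with a J domain, was 0.86 higher with vehicle (adjusted p = 0.013). Dnajc18 was 0.54 higher (adjusted p = 0.029), as was Dnajc6, the auxilin that uncoats clathrin vesicles in neurons, by 0.46 (adjusted p = 0.043).

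Of 9 BAG, exchange factor and other HSP70 cofactor genes, 3 were higher within pools (Bag4, Hspbp1 and Bag2, the last at background), where 15.2% of all probesets were. Bag4 was 0.59 higher with vehicle (adjusted p = 0.044 in limma). Of 18 co-chaperones and relatives of HSP90, 1 was higher and 2 were lower within pools, where 15.2% and 12.9% of all probesets were. Fkbp5, a glucocorticoid-induced immunophilin that joins HSP90 on steroid receptors, averaged 9.08 ± 0.41 in GFP+ cells and 10.24 ± 0.38 in GFP- cells with odorant (SD, n = 4 each, difference -1.17, adjusted p = 0.0079). With vehicle it differed by -1.05 (adjusted p = 0.028), and within pools by -1.11 (adjusted p = 5.2e-05), or -0.77 with array medians subtracted.

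Of 13 mitochondrial chaperones and proteases, 1 was higher and 1 lower within pools, no larger a share than the 15.2% and 12.9% of all probesets, and Clpp, the matrix protease, was 0.48 higher with vehicle (adjusted p = 0.038 in limma). Of 11 other HSP70 and HSP110 genes, 1 was higher within pools, Hspa12a (0.40, adjusted p = 0.0042), again below the 15.2% of all probesets. None passed in any of the 3 fits of 7 TRiC subunits, which fold actin and tubulin, of 6 prefoldin subunits, which hand clients to TRiC, and of 5 heat shock factors and regulators. Their smallest p-values belonged to Cct7 (0.40 with vehicle, at background, adjusted p = 0.094), Pfdn5 (-0.40 with vehicle, adjusted p = 0.15) and Hsf4 (0.41 with odorant, at background, adjusted p = 0.13). Of 8 further small heat shock proteins 7 were at background in every group, and 1 of these, Hspb8, was called lower within pools, where 12.9% of all probesets were. With array medians subtracted, 37 of 39 DNAJ and 5 of 7 TRiC probesets were called higher, as were 15341 of all 22206 probesets. The median over all probesets was then 0.44. The odorant comparisons and their difference called 0 probesets of any of these lists, as of the whole table.

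Markers of other cells of the mucosa moved with the fractions. Of 31 immediate early gene probesets, which respond to activity and to handling, 22 were lower in GFP+ cells within pools, where 12.9% of all probesets were, with a median of -1.72. Their mean level ran from 7.35 to 7.61 in GFP+ cells with odorant and, with vehicle, from 7.36 to 7.77, against 9.30 to 10.04 in GFP- cells with odorant and 9.38 to 9.81 in GFP- cells with vehicle. Egr1 differed by -5.16, Egr2 by -6.04 and Btg2 by -5.10 (adjusted p-values of 3.1e-09, 2.7e-10 and 1.9e-10 in limma). Arc, Egr4, Maff and Npas4 were at background in every group.

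Of 16 immune markers 13 were lower in GFP+ cells within pools, where 12.9% of all probesets were. Their summed signal (log2) ran from 10.70 to 12.01 in GFP+ cells with odorant and from 10.72 to 12.14 in GFP+ cells with vehicle, against 15.52 to 17.44 in GFP- cells with odorant and 15.74 to 17.46 in GFP- cells with vehicle. With odorant S100a9 was lower in GFP+ cells by at least 155-fold, and Ptprc, Itgam and Tyrobp were at background in both GFP+ groups. Also lower were 10 of 10 microvillar and tuft markers, 9 of 9 globose basal and cycling markers, 11 of 13 immature neuron markers, 8 of 10 sustentacular markers, 4 of 8 Bowman gland markers, 2 of 2 red blood cell genes and 2 of 9 fibroblast and glia markers. The share of all probesets beside each of these counts is the same 12.9%. In both GFP+ groups 8 of the 10 microvillar and 8 of the 9 basal markers were at background. All 7 horizontal basal and all 7 endothelial markers were at background in every group, and 1 of each list was called lower within pools. Of 14 mature neuron markers 4 were higher, where 15.2% of all probesets were, and 0 lower, where 12.9% were. The part of these cells in the heat shock differences was not tested, and in bulk RNA fewer cells of a type and less RNA per cell cannot be told apart.

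**Figure D5:**
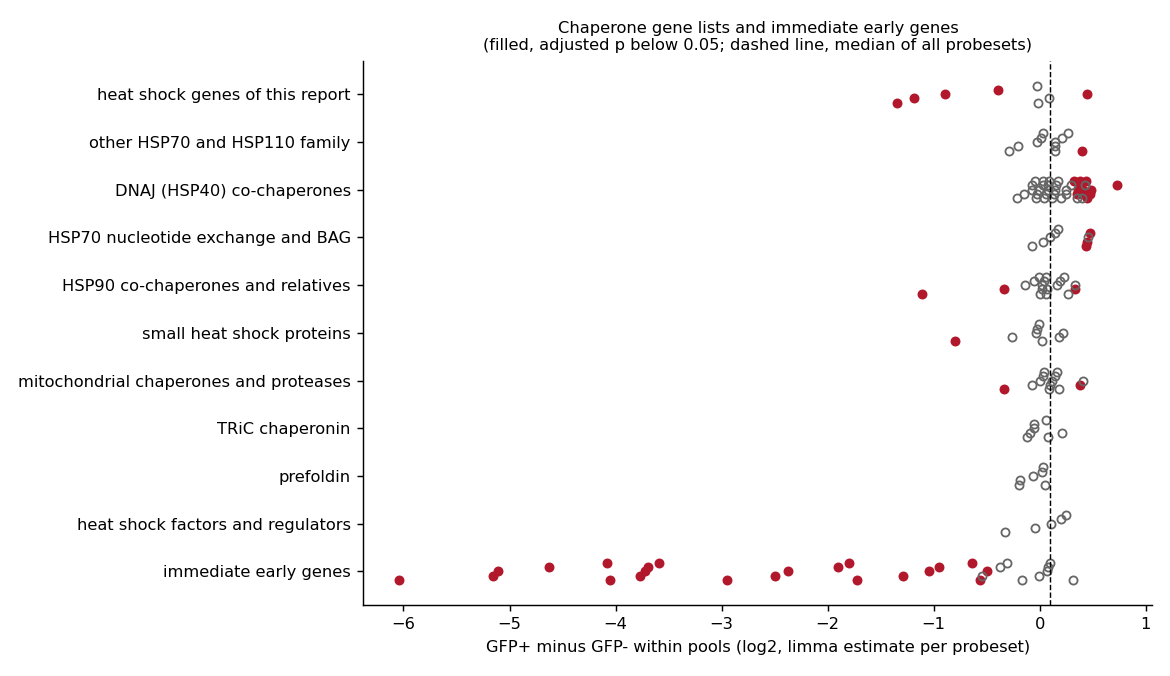
GFP+ minus GFP- difference within pools (log2) of each probeset, by gene list, filled where the adjusted p is below 0.05, with the median of all probesets, 0.10, as a dashed line. The 12 DNAJ calls are all on the higher side. The heat shock genes, among which Dnajb1 is counted, hold 1 higher and 4 lower calls.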

How the data were processed

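RNA of sorted cells was labelled from 50 to 100 ng of total RNA, per the labels' protocols. The authors made the deposited log2 values with Affymetrix Expression Console, per the submitters' processing notes; version, normalization and annotation build: not given in the sources used here. Of 28846 probesets, 6640 controls were left out. Of the 22206 gene probesets 19572 had 1 symbol, 0 several and 2634 none. Replicates are pools of 3 mice, and 0 pairs of arrays were identical.

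Each comparison of 4 with 4 arrays, and the interaction over 16, was fitted with limma 3.58.1 (lmFit and eBayes, R 4.3.3), two-sided. P-values were adjusted by Benjamini-Hochberg across the 22206 probesets, and an adjusted p below 0.05 was called. The fits were tested on simulated data. With 24 mice at 3 per pool, fractions of the same treatment and number shared mice, which pairs them. Their centred values correlated at 0.014 to 0.36 with odorant, where 5 of 8 arrays matched their own number best, and at 0.11 to 0.16 with vehicle, where 8 of 8 did. The fit over 8 pools was added after the data were seen. A group was at background when no array exceeded the level given above. A fold against such a group is a lower bound on the fold of the group means. It was computed with each array's background level in place of any value below it, and leaves out the spread between arrays.

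The members and gene lists were chosen with earlier results of these data known. Named genes were all members, S100a5, Omp, up to 4 genes per chaperone list with the smallest p past the threshold between fractions (or 1 where none passed), up to 3 per marker list, and the 5 most like each of Hspa1b, Hspd1 and the members' mean. Eif2s3y, genes called only within pools and markers named as at background were chosen after their values were seen. Alternatives were quantile normalization, subtraction of array medians, dim probesets left out, all arrays in 1 fit, a trended robust prior, the replicate block and leaving out arrays. Plots used matplotlib 3.10.9 (Python 3.11.15).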

Additional observations from a re-analysis of the deposited data

Results flagged for a closer look

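In 32 sets of 4 arrays (8 genes by 4 groups), 2 had 1 array far from the other 3 by Dixon's criterion, where chance flags about 1 in 20. Hspd1 in GFP+ cells with vehicle read 12.25 on replicate 3, against 12.43 to 12.46 on the other 3 arrays. Hspb1 in GFP+ cells with odorant read 2.70 on replicate 3, against 3.73 to 3.90, all at background.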

How the results depend on the processing

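Of 618 member values under alternative settings, 538 kept their direction and their side of the threshold, and 58 changed sign. With the sign kept, 20 passed the threshold newly and 2 no longer did. Some that changed sign also passed newly, as Hsp90aa1 and Hspd1 did within pools with array medians subtracted. With array medians subtracted, the fraction comparisons gave 2 members and 9277 probesets with odorant (7757 higher, 1520 lower, against 793 and 1742), 1 member and 12050 probesets with vehicle (10363 and 1687, against 1723 and 2213) and 17337 probesets within pools. Signs then turned for Dnajb1 (0.0088) and Hspd1 (0.30) with odorant, for Hsp90aa1 (0.24) and Hspd1 (0.34) with vehicle, for Hsp90aa1 (0.31) and Hspd1 (0.32) within pools, and for the interaction of Hspa1a (-0.0453) and Hspd1 (-0.0309). Quantile normalization turned Hsp90aa1 in the odorant comparison of GFP+ cells (0.0103) and called 1 member between fractions with vehicle. Leaving out dim probesets gave 1661 of the 11123 probesets then tested with odorant, against 2535 of 22206, and 2 members with vehicle. A single fit of all arrays gave 1 member with odorant, and the trended robust prior gave 1 with odorant and 2 with vehicle. The replicate block, with the pool as pairing, gave 1 member with odorant and 4 with vehicle, beside the calls over all probesets given above. Without it the fit over pools gave 4 in place of 5, Dnajb1 being lost (adjusted p = 0.084 in limma). Between treatments the samples share only a number (r -0.034 to 0.25 in GFP+ cells, where 4 of 8 arrays matched their own number best, and -0.10 to 0.30 in GFP- cells, where 5 of 8 did), and the block called 0 members there. Without the pools numbered 4 of both treatments, 3 probesets were called for the odorant in GFP+ cells. Signs then turned for Hspa1a there (0.0665), for Hspa1a (0.32), Hspa1b (0.26), Dnajb1 (0.0041) and Hspb1 (0.0812, at background) in GFP- cells, for Hsp90aa1 within pools (0.0100) and for the interaction of Hspa1a (-0.26), Hspd1 (-0.10) and Hspe1 (-0.13).

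With 1 array or pool left out, members called ranged from 0 to 1 with odorant, from 0 to 2 with vehicle and stayed at 5 within pools. All probesets called ranged from 2479 to 3002 with vehicle and from 0 to 3 for the odorant in GFP+ cells. Differences that changed sign ranged, for the odorant in GFP+ cells, from -0.28 to 0.0408 (Hspa1a), -0.0762 to 0.23 (Dnajb1), -0.0623 to 0.0571 (Hsp90aa1) and -0.23 to 0.0515 (Hspd1). In GFP- cells they ranged from -0.87 to 0.21 (Hspa1a), -0.75 to 0.20 (Hspa1b), -0.32 to 0.11 (Dnajb1) and -0.48 to 0.0562 (Hspb1). Between fractions they ranged from -0.0896 to 0.16 (Hspd1) and -0.0615 to 0.34 (Hspe1) with odorant, and from -0.0719 to 0.0275 (Hspd1) and -0.0539 to 0.19 (Hspe1) with vehicle. Within pools they ranged from -0.0555 to 0.0205 (Hsp90aa1) and -0.0542 to 0.0522 (Hspd1). The interaction ranged from -0.35 to 0.65 (Hspa1a), -0.90 to 1.4e-04 (Hspa1b), -0.0619 to 0.19 (Hspd1), -0.12 to 0.28 (Hspe1) and -0.33 to 0.31 (Hspb1). The causes were not tested. Dim probesets left out gave no value for Hspb1, whose values are all at background.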
